A study of Mus musculus with 10 samples.

Results

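TRBV19 and TRBV29 are variable segments of the mouse T cell receptor β (TRB) locus, and their clonotypes were described across 9 TRB libraries of sorted skin and lymph node T cells. The CDR3 is the junction between V and J that contacts antigen, and each distinct nucleotide CDR3 with its V and J counted as 1 clonotype. Members were all clonotypes whose deposited V segment was TRBV19 (1297 clonotypes) or TRBV29 (1428 clonotypes), together 2725 of 29481. Of these, 160 TRBV19 and 93 TRBV29 clonotypes came from the 8 skin libraries, which held 2788 clonotypes in all. In the GRCm38 annotation TRBV19 lies on the plus strand of chromosome 6 from 41178375 to 41179048, and TRBV29 on the same strand from 41271394 to 41271881. Each has a coding exon, from 41178746 to 41179048 and from 41271587 to 41271881, whose 3′ end encodes the start of the CDR3.

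The series asked which αβ T cells fill the skin niches of γδ T cells in mice that lack the δ chain, the Tcrd-/- mice of strain B6.129P2-Tcrdtm1Mom/J. Epidermal Tcrd-/- cells (3 libraries, A to C) were sorted as CD3hi TCRβhi, and bulk dermal Tcrd-/- cells (2 libraries, A and B) as CD3+ TCRβ+. Dermal Tcrd-/- CD103hi and CD103+ cells, a wild-type (WT) dermal sort from C57BL/6-N/Crl mice and a Tcrd-/- peripheral lymph node sort had 1 library each. All cells were live and CD45+, skin came from the ear, and CD103 is an integrin chain found on many epithelial T cells. Each library was a pool from 5 to 18 animals, and the labels do not say how animals were divided between pools, so each p-value below reflects only how far single libraries vary. The WT and Tcrd-/- mice also differ in strain, which cannot be told apart from genotype here. Ages were not given.

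Most αβ T cells recognise peptides on classical MHC molecules, but some innate-like T cells have nearly invariant α chains and recognise other ligands. Mucosal-associated invariant T (MAIT) cells recognise microbial vitamin B metabolites on MR1, and in mice their β chains often use TRBV19 or a TRBV13 segment. Invariant natural killer T (iNKT) cells recognise lipids on CD1d, and in mice their β chains use TRBV13-2, TRBV29 or TRBV1. Conventional T cells use the same V segments, so a β chain alone identifies neither cell type. The α chains were not measured and no marker gene of either cell type could be examined in these libraries.

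The sequences below are the CDR3s of the largest TRBV19 and TRBV29 clonotype of each Tcrd-/- skin library, shown because a few clonotypes carried most of each segment's skin reads. They are written 5′ to 3′, and capitals mark bases that the deposited positions assign to no V, D or J segment. The germline starts were read from GENCODE M21 transcripts (GRCm38).
TRBV19 germline start: tgtgccagcagtatag
TRBV19, epidermal Tcrd-/- A: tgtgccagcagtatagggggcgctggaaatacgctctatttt
TRBV19, epidermal Tcrd-/- B: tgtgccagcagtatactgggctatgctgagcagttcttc
TRBV19, epidermal Tcrd-/- C: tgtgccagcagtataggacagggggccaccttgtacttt
TRBV19, dermal Tcrd-/- A: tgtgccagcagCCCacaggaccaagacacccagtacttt
TRBV19, dermal Tcrd-/- B: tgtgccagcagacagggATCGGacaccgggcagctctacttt
TRBV19, dermal Tcrd-/- CD103hi: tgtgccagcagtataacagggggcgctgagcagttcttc
TRBV19, dermal Tcrd-/- CD103+: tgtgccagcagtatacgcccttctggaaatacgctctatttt
TRBV29 germline start: tgtgctagcagtttatc
TRBV29, epidermal Tcrd-/- A: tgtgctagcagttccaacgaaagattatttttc
TRBV29, epidermal Tcrd-/- B: tgtgctagcGAtcaaaacaccttgtacttt
TRBV29, epidermal Tcrd-/- C: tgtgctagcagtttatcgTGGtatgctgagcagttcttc
TRBV29, dermal Tcrd-/- A: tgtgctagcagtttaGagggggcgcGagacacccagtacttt
TRBV29, dermal Tcrd-/- B: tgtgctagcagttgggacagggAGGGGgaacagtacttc
TRBV29, dermal Tcrd-/- CD103hi: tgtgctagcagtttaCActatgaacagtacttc
TRBV29, dermal Tcrd-/- CD103+: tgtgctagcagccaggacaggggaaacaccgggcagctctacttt

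The TRBV19 leaders of the 3 epidermal libraries and both CD103 sorts keep the germline's tata and have no capitals, whereas those of bulk dermal A and B leave the germline earlier. With junctions recounted by exact matching to the reference segments, the leaders of epidermal B, epidermal C and CD103hi still had 0 inserted bases. The recount gave 1 inserted base in epidermal A and 5 in CD103+, where the deposited positions assigned every base to a segment. The recount required exact matches, for D of at least 5 bases, and the source of the gap was not tested. Among the TRBV29 leaders, the deposited positions gave no inserted base in epidermal A and CD103+, and the recount gave 0 and 3.

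The libraries differed in depth and in how their clonotypes were made up. Total reads ranged from 31823 in CD103hi to 189162 in WT dermis, and the other libraries held between 41602 and 52910. Skin libraries held 72 (epidermal C) to 702 (WT dermis) clonotypes and the lymph node library 26693. Some listed skin clonotypes were near copies, differing by 1 or 2 bases from a clonotype with the same V, J and length and at least 10 times its reads in the same library. They made up 6.94 to 42.8% of clonotypes in skin libraries, highest in epidermal B, and 0.124% in lymph node. Among skin members, 44 of 160 TRBV19 and 18 of 93 TRBV29 clonotypes were near copies. Those resting on 1 read were 61 and 39, with no such count over all skin clonotypes beside them. A further property, CDR3 ends whose first or last 9 bases did not match the reference V and J, was found in 36 TRBV19 and 23 TRBV29 skin clonotypes. Over all clonotypes of a skin library, such ends were found in 7 of 72 (epidermal C, the lowest share) to 158 of 435 (epidermal B, the highest). The source of these sequences was not tested. Reads are PCR products with no molecular identifiers, so intervals cover only counting error. The library names in the labels form 3 sets, the first with lymph node, dermal A and epidermal A, another with the CD103 sorts and epidermal B, and another with WT dermis, dermal B and epidermal C.

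The TRBV19 read share of each epidermal library lay below that of both bulk dermal Tcrd-/- libraries, a difference that an exact test over 5 libraries could not bring past the threshold. Its read share was 1.55, 2.80 and 0.105% in epidermal A, B and C, against 7.26 and 2.86% in dermal A and B. The groups did not overlap, but epidermal B (Wilson 95% interval 2.66 to 2.95%) and dermal B (2.71 to 3.03%) could not be separated by counting error alone. Mean shares were 1.49% ± 1.35 in epidermis (SD, n = 3) and 5.06% ± 3.11 in dermis (SD, n = 2). The exact permutation test gave p = 0.2, the smallest these 10 splits allow, and 0.48 after Benjamini-Hochberg adjustment over 12 values. The difference of -3.57 percentage points was -1.38 when dermal A was left out, -5.77 when dermal B was, and -1.61 with CD103hi and CD103+ counted as dermal libraries. It was -5.70 within the library set of the A libraries and -2.76 within the set of epidermal C and dermal B (epidermal B has no bulk dermal library in its set). Fewer TRBV19 cells and less receptor RNA per cell cannot be told apart in these pools.

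By distinct clonotypes, TRBV19 shares of both groups overlapped. They were 4.72, 9.43 and 11.1% in epidermal A, B and C, against 5.96 and 10.4% in dermal A and B. The means of 8.42% ± 3.31 in epidermis (SD, n = 3) and 8.17% ± 3.13 in dermis (SD, n = 2) differed by 0.244 percentage points, within the spread (exact permutation p = 1). The high share in epidermal C was 8 of only 72 clonotypes, with 46 reads between them. Several of these 8 were single reads of clonotypes with more reads in WT dermis or dermal B, as listed below. In epidermal B, 19 of 41 TRBV19 clonotypes were near copies, and the share without near copies was 8.84%.

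TRBV29 showed the highest read share of any of these libraries in epidermal C. Its read share was 2.03, 3.57 and 11.98% in the epidermal libraries A to C, against 2.97 and 4.92% in dermal A and B. The groups overlapped, with means of 5.86% ± 5.35 in epidermis (SD, n = 3) and 3.95% ± 1.38 in dermis (SD, n = 2), and the exact permutation test gave p = 1. The difference of 1.91 percentage points rested on epidermal C and was -1.15 without it. It ranged between 0.938 (without dermal A) and 3.83 (without epidermal A) when another library was left out. By clonotypes the shares were 4.72, 2.30 and 4.17% in epidermis, against 3.40 and 5.19% in dermis (exact permutation p = 0.8). These numbers are small, with 3 TRBV29 clonotypes in epidermal C and 4 in dermal B.

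Among skin libraries, the lowest clonotype shares were those of TRBV19 in both CD103 sorts and of TRBV29 in CD103+. TRBV19 took 0.566% of reads and 1.53% of clonotypes in CD103hi and 1.71% and 2.64% in CD103+. TRBV29 took 2.28% of reads and 2.84% of clonotypes in CD103hi, and 1.61% and 0.610% in CD103+, where it had 3 of 492 clonotypes. In WT dermis TRBV19 took 1.65% of reads and 7.69% of clonotypes, and both bulk dermal Tcrd-/- read shares lay above it. TRBV29 took 6.93% of reads and 5.27% of clonotypes in WT dermis, and both bulk dermal Tcrd-/- libraries lay below it. In lymph node, reads and clonotypes gave nearly the same shares, 4.49 and 4.26% for TRBV19 and 5.19 and 5.00% for TRBV29. Without replicates these values carry no test.

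**Figure D1:**
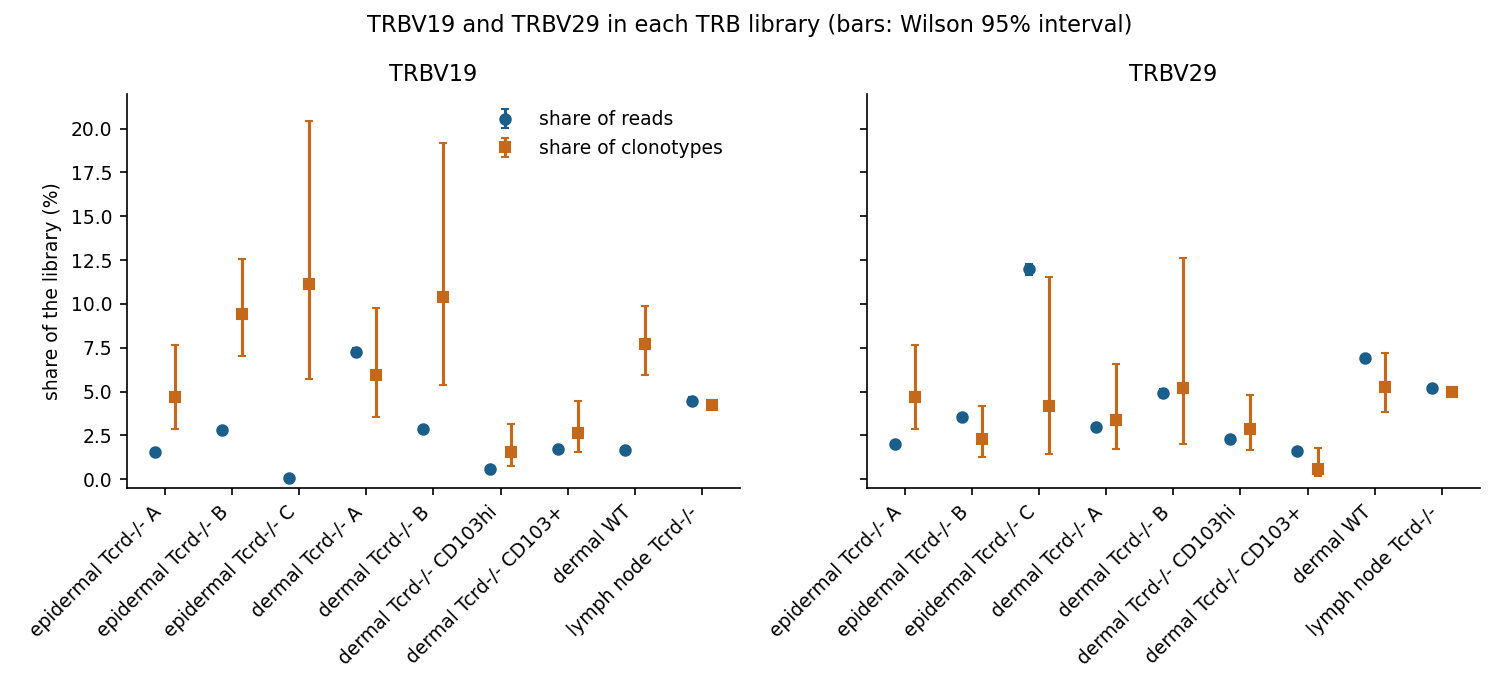
Share of reads (circles) and of clonotypes (squares) taken by TRBV19 and TRBV29 in each of the 9 TRB libraries, in percent, with Wilson 95% intervals. Read shares of TRBV19 in epidermis lie between 0.105 and 2.80%, TRBV29 reaches 11.98% of reads in epidermal C, and both measures nearly coincide in lymph node.

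Ordered by read share, TRBV19 was lowest in epidermal C and highest in dermal A, a 69.2-fold range over 8 skin libraries with a median of 1.68%. TRBV29 ranged 7.43-fold, between CD103+ and epidermal C, with a median of 3.27%. The TRBV19 read share was below that of lymph node in 7 of 8 skin libraries, dermal A being the exception, and the clonotype share in only 2, both CD103 sorts. For TRBV29 the read share and the clonotype share were each below lymph node in 6 of 8. Neighbours in the TRBV19 order whose Wilson intervals overlapped were epidermal A, WT dermis and CD103+ (1.55, 1.65 and 1.71%), and epidermal B and dermal B. In the TRBV29 order they were epidermal A and CD103hi (2.03 and 2.28%), and dermal B and lymph node (4.92 and 5.19%).

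Neither segment passed the test of usage across all V segments. In edgeR's quasi-likelihood test of epidermal over dermal reads, TRBV19 had a log2 fold change of -1.77 (adjusted p = 0.756) and TRBV29 of 0.57 (adjusted p = 0.881). The TRBV19 value was -0.95 without dermal A, -1.06 with CD103hi and CD103+ counted as dermal, -1.13 with the replicate block and -3.49 with the library set as a block. On clonotype counts the edgeR log2 fold changes were 0.06 (adjusted p = 0.942) and -0.18 (adjusted p = 0.880). Of all segments, 0 of 23 (0%) passed by reads, with 4 at an unadjusted p under 0.05, and 0 of 21 (0%) by clonotypes, with 1. Even segments with read log2 fold changes of 11.0 and -10.1 failed (edgeR adjusted p = 0.272), so failing this test does not show equal usage. DESeq2 called 4 of 20 segments by reads (20%) and 0 of 21 by clonotypes, none of them TRBV19 or TRBV29.

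The other V segments that innate-like T cells use did not pass either. Together with TRBV13-1, TRBV13-2, TRBV13-3 and TRBV1, 0 of the 6 segments passed the edgeR test or the DESeq2 test by reads or by clonotypes. By reads 3 of the 6 had a log2 fold change below 0, with a median of -0.60, beside 10 of 23 and a median of 0.46 over all segments. By clonotypes 4 of 6 were below 0 with a median of -0.30, beside 11 of 21 and -0.18. TRBV13-2, the main iNKT segment in mice, had read shares of 19.0, 11.4 and 18.6% in the epidermal libraries A to C, against 11.8 and 4.63% in dermal A and B. Its edgeR log2 fold change of 0.99 had an adjusted p of 0.805. In each of the 9 libraries TRBV13-2 took a larger share of reads than TRBV19.

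Skin reads of both segments came from a few clones, and these differed between libraries. The largest TRBV29 clonotype of epidermal C, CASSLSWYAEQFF with TRBJ2-1, had 5254 reads, 99.96% of the segment and 11.97% of the library. The other 2 TRBV29 clonotypes of epidermal C had 1 read each. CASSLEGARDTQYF made up 99.2% of TRBV29 reads in dermal A (1559 reads), and the leader of CD103+ printed above, joined to TRBJ2-2, made up 99.7% there (689 reads). In these 3 libraries the TRBV29 read share was therefore the size of 1 clone.

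In the other libraries TRBV29 reads were spread over more clones. Dermal B had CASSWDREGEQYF (1316 reads) and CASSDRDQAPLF (729 reads), which left 2 of its 2047 TRBV29 reads. Epidermal B was led by the short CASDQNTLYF (1283 reads, 70.0% of the segment), CD103hi by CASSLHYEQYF (546 reads, 75.2%) and epidermal A by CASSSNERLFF (298 reads, 31.8%). WT dermis was more even, its largest, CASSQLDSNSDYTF, having 2436 of 13103 TRBV29 reads (18.6%). In 5 of 8 skin libraries the leading TRBV29 clonotype was among the 10 largest of the whole library.

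TRBV19 clones were larger parts of the bulk dermal libraries than of the other skin libraries. Dermal A held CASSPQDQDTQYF (1517 reads, 2.87% of the library) and a clonotype with a CDR3 of 16 residues joined to TRBJ2-1 (1232 reads, 2.33%), and the larger was the 7th largest clonotype of that library. In dermal B, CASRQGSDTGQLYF had 1162 reads, 97.6% of the segment and 2.79% of the library. The TRBV19 reads of bulk dermis thus came mostly from 3 clones. In the epidermal libraries the leaders were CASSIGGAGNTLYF (234 reads) in A, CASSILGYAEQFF (342 reads) in B and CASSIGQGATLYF (32 reads) in C. CD103hi was led by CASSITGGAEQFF (123 reads), CD103+ by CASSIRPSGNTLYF (412 reads) and WT dermis by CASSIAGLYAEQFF (432 reads). In lymph node no member exceeded 13 reads, and the leaders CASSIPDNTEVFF (TRBV19, 13 reads) and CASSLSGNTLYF (TRBV29, 12 reads) made up 0.551 and 0.441% of their segments.

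**Figure D2:**
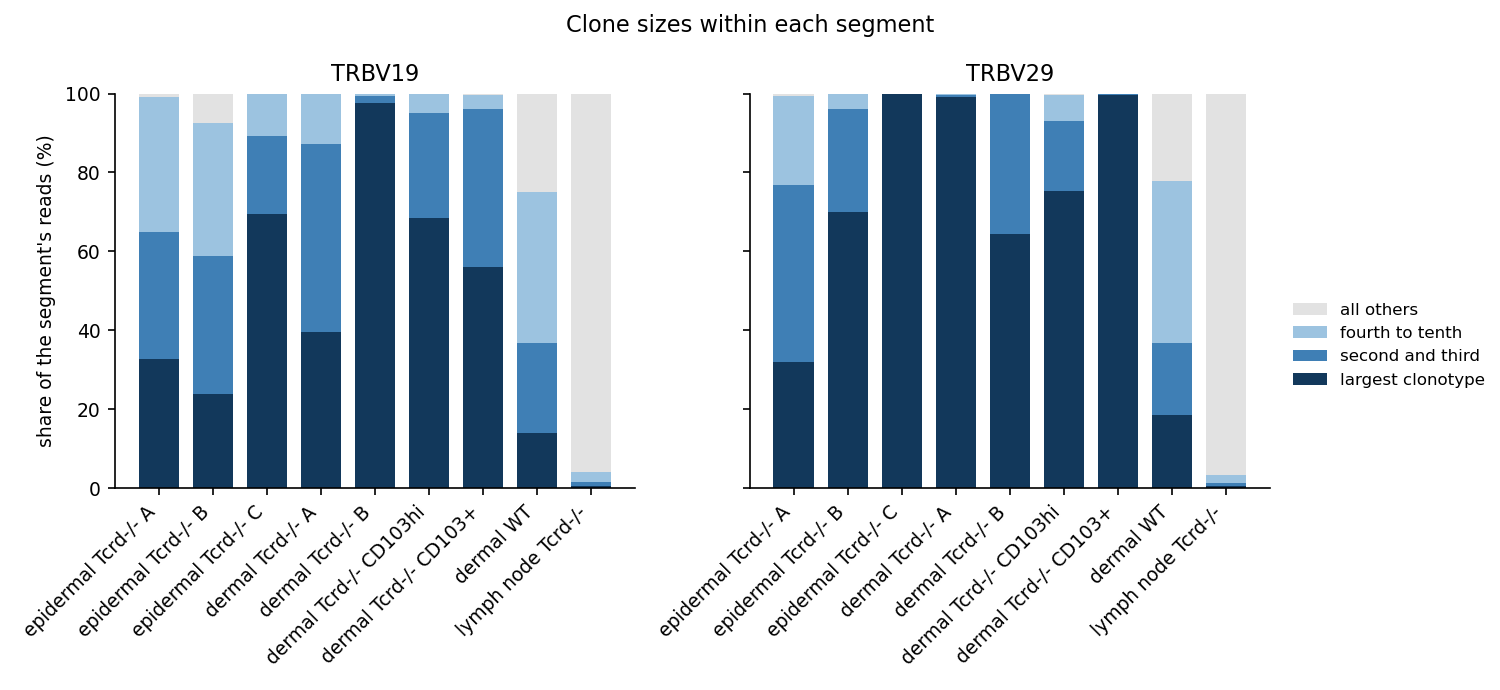
Share of each segment's reads, in percent, held by its largest clonotype, the following ranks up to 10 and all other clonotypes in each library. The largest clonotype held 13.9 to 97.6% of TRBV19 and 18.6 to 99.96% of TRBV29 reads in skin, against 0.551 and 0.441% in lymph node.

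Clone size per clonotype was compared within each library, so both sides had the same depth. Counts start at 1 read, so reads per clonotype still limit how large a difference can be. The mean log2 read count per TRBV19 clonotype was lower than that of the library's other clonotypes in 6 of 9 libraries, with a mean difference of -0.88 ± 1.26 (SD, n = 9), and -1.58 with at least 2 reads. The exact sign-flip permutation over 9 libraries gave p = 0.0898, and 0.225 after adjustment over 10 values. For TRBV29 the mean difference was -0.05 ± 0.75 (SD, n = 9; exact permutation p = 0.887).

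The fifth residue of the CDR3 separated TRBV19 reads by library more than TRBV19 clonotypes. The germline end of TRBV19 encodes isoleucine there (CDR3s starting CASSI), and that of TRBV29 leucine (CASSL). CASSI clonotypes held 79.5, 68.3 and 71.7% of TRBV19 reads in the 3 epidermal libraries, against 2.89 and 1.76% in dermal A and B. They held 68.3% in CD103hi, 80.9% in CD103+, 36.6% in WT dermis and 33.2% in lymph node. Bulk dermal A and B were thus the lowest, and the epidermal libraries and CD103 sorts the highest, of the 9 libraries. Counted by complete clonotypes the shares were 60, 23.1 and 25% in epidermis, against 33.3 and 50% in dermis, and the groups overlapped. The separation was seen by reads only and followed the leading clones, since 6 of 8 skin leaders started with CASSI, all but those of dermal A and B. This measure was chosen after the values were seen and carries no test.

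The corresponding leucine of TRBV29 showed no such separation. CASSL clonotypes held 22.1, 9.22 and nearly all (99.98%) of TRBV29 reads in the 3 epidermal libraries, against 99.4 and 0.0489% in dermal A and B. By clonotypes the values were 33.3, 80 and 66.7% in epidermis, against 50 and 25% in dermis, and 34.8% in lymph node. Read shares of CASSL thus lay near 0 or 100% in several libraries, as each held 1 or a few large clones.

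**Figure D3:**
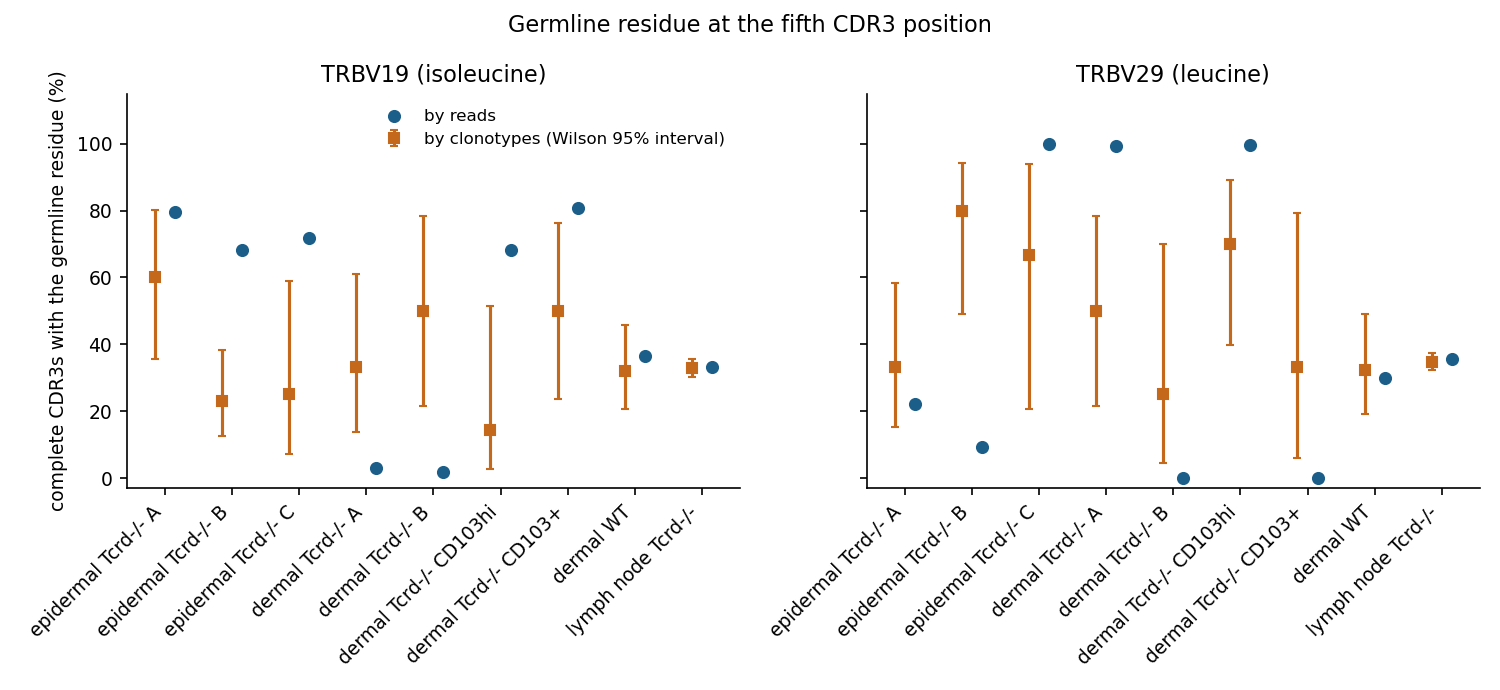
Share of complete TRBV19 and TRBV29 CDR3s with the germline residue at position 5, in percent, by clonotypes (squares, Wilson 95% intervals) and by reads (circles). By reads TRBV19 lies between 68.3 and 80.9% in the epidermal libraries and CD103 sorts and at 2.89 and 1.76% in dermal A and B. By clonotypes the TRBV19 intervals of dermal A and B overlap those of the epidermal libraries and CD103 sorts.

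TRBV19 CDR3s averaged longer than the other CDR3s of the same library in 8 of 9 libraries, a difference that missed the threshold after adjustment. Mean lengths were 13.6, 13.4 and 14.1 amino acids in epidermal A, B and C, where the other clonotypes averaged 13.1, 13.0 and 13.0. In dermal A and B they were 14.1 and 14.6, with 14.0 and 13.8 for the others, and in CD103hi and CD103+ 14.0 each, with 13.2 and 13.5. WT dermis had 14.3 against 13.8. Lymph node, with 1137 TRBV19 clonotypes, was the only library in which they were not longer (13.7 against 13.8). The mean difference over 9 libraries was 0.519 ± 0.369 amino acids (SD, n = 9), higher in 8 of 9, with an exact permutation p = 0.00781 that became 0.0781 after adjustment over 10 values and missed the threshold of 0.05.

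TRBV29 CDR3s did not differ from the others beyond the threshold. Their mean length was below that of the other clonotypes in 7 of 9 libraries, by -0.444 ± 0.867 amino acids (SD, n = 9) on average (exact permutation p = 0.160, adjusted 0.267). It was -0.222 without dermal B, -0.261 with at least 2 reads and -0.722 without trace clonotypes, those with under 1% of the share the same clonotype had in another library of the set. The largest gap was in dermal B, where 4 TRBV29 clonotypes averaged 11.75 amino acids and the others 14.0. In lymph node the means were 13.5 and 13.8. The germline CDR3 parts are 16 bases in TRBV19 and 17 in TRBV29, beside 14 to 21 (median 17) in 22 other V segments.

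Between tissues, the TRBV19 mean lengths of the epidermal libraries lay below those of both bulk dermal libraries, although epidermal C (14.12 amino acids) and dermal A (14.14) were nearly level. Group means were 13.7 ± 0.359 amino acids in epidermis (SD, n = 3) and 14.4 ± 0.341 in dermis (SD, n = 2), and the exact permutation test gave p = 0.2 (adjusted 0.48). The difference of -0.663 was -0.543 within the set of the A libraries and -0.500 within that of epidermal C and dermal B. It was -0.422 without dermal B and -1.17 with at least 2 reads. The other clonotypes of these libraries had the same order. Their mean lengths were 13.1, 13.0 and 13.0 in epidermal A, B and C, against 14.0 and 13.8 in dermal A and B. TRBV29 lengths of 13.1, 12.4 and 14.0 in epidermis overlapped with 13.6 and 11.75 in dermis (exact permutation p = 0.6).

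The share of TRBV19 clonotypes without an inserted base was higher in each epidermal library than in both bulk dermal ones. It was 40, 34.1 and 25% in epidermal A, B and C, against 21.4 and 0% in dermal A and B, with 0 of 8 clonotypes in dermal B. The Wilson 95% intervals were wide, 7.15 to 59.1% in epidermal C and 7.57 to 47.6% in dermal A, and overlapped. Mean shares were 33.0% ± 7.56 in epidermis (SD, n = 3) and 10.7% ± 15.2 in dermis (SD, n = 2), and the exact permutation test gave p = 0.2 (adjusted 0.48). The difference of 22.3 percentage points was 11.6 without dermal B, 14.8 with CD103hi and CD103+ counted as dermal, 33.7 with at least 2 reads and 15.8 with junctions recounted from the reference (exact permutation p = 0.2). It was 19.4 with complete CDR3s only, 22.6 without near copies and 17.4 with matching ends. In each of these settings the groups no longer separated fully (exact permutation p = 0.4). Weighted by reads it was 55.0, which followed the leading clones shown above. The other clonotypes of the same libraries had the same order. Their shares without an inserted base were 46.5, 47.7 and 39.1% in epidermal A, B and C, against 18.1 and 20.3% in dermal A and B.

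TRBV29 clonotypes had the opposite order. Those without an inserted base made up 33.3, 40 and 0% in epidermal A, B and C, against 50% in both dermal A and dermal B. The groups did not overlap, but these are 4 of 8 clonotypes in dermal A, 2 of 4 in dermal B and 0 of 3 in epidermal C. The difference was -25.6 percentage points (exact permutation p = 0.2, adjusted 0.48), and weighted by reads it turned to 13.0. It was -13.3 without epidermal C and also without trace clonotypes, -14.7 with CD103hi and CD103+ counted as dermal and -6.82 with at least 2 reads. With recounted junctions the shares were 40, 12.5 and 0% in epidermal A, B and C, against 60 and 33.3% in dermal A and B. The groups then overlapped (exact permutation p = 0.4).

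Compared with other clonotypes of the same library, TRBV19 had a lower share without inserted bases in 7 of 9 libraries. The segment had 40, 34.1 and 25% in epidermal A, B and C, where the other clonotypes had 46.5, 47.7 and 39.1%. In CD103hi and CD103+ it had 28.6 and 23.1%, where the others had 45.3 and 31.3%. The mean difference was -8.15 ± 8.74 percentage points (SD, n = 9), with an exact permutation p = 0.0313 and an adjusted 0.156, so it did not pass. It was -0.544 weighted by reads, -4.96 with recounted junctions and -13.1 with at least 10 reads. For TRBV29 the mean difference was -2.21 ± 23.7 (exact permutation p = 0.762).

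By the deposited positions, mean inserted bases per clonotype overlapped between tissues for both segments. TRBV19 had 2.33, 2.51 and 3.12 in epidermal A, B and C, against 2.86 and 4.75 in dermal A and B (exact permutation p = 0.4). The TRBV19 difference of -1.15 became -2.09 when dermal A was left out, -0.200 when dermal B was, and -2.81 recounted. Recounted TRBV19 means were 2.67, 3.48 and 3.75 in epidermal A, B and C, against 4.64 and 7.57 in dermal A and B. These did not overlap (exact permutation p = 0.2, adjusted 0.4). Nor did TRBV19 means with at least 2 reads (-1.68) or weighted by reads (-2.70), each with an exact permutation p = 0.2. TRBV29 had 4.8, 1.8 and 3.67, against 1.75 and 2.25 (exact permutation p = 0.4). In lymph node both segments were near the other clonotypes, with 3.12 for TRBV19, 2.96 for TRBV29 and 2.89 for the clonotypes outside either segment taken in turn.

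**Figure D4:**
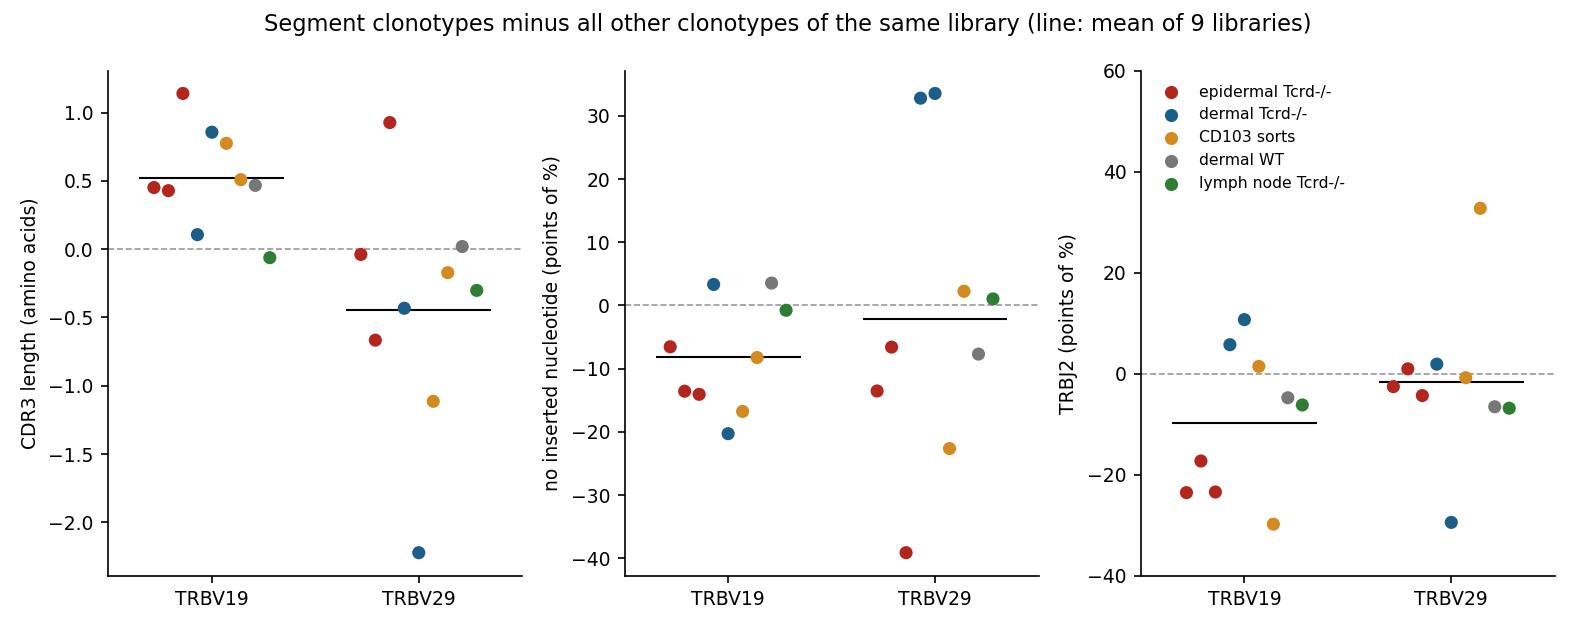
Each point is 1 library's TRBV19 or TRBV29 clonotypes minus all its other clonotypes, for mean CDR3 length in amino acids, for the share without inserted nucleotides and for the share joined to TRBJ2, both in percentage points. Lines are means over 9 libraries. TRBV19 lengths lie above 0 in 8 of 9 libraries, and TRBV29 points spread to both sides of 0 in each panel.

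The TRBJ2 share of TRBV19 clonotypes was lower in each epidermal library than in both bulk dermal ones, without passing the test. It was 53.3, 63.4 and 50% in epidermal A, B and C, against 78.6 and 87.5% in dermal A and B, the remainder being TRBJ1. The groups did not overlap. Mean TRBJ2 shares were 55.6% ± 6.98 in epidermis (SD, n = 3) and 83.0% ± 6.31 in dermis (SD, n = 2), and the exact permutation test gave p = 0.2 (adjusted 0.48). The difference of -27.5 percentage points was -13.4 with CD103hi and CD103+ counted as dermal. Among clonotypes with ends matching the reference it was -18.1, and the groups no longer separated fully (exact permutation p = 0.4). Over all clonotypes the difference was -37.5 within the set of epidermal C and dermal B and -25.2 within that of the A libraries. CD103hi had 71.4% and CD103+ 38.5%, the lowest of all 9 libraries, with WT dermis at 66.7% and lymph node at 63.9%.

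By reads the TRBV19 contrast was larger and again followed single clones. TRBJ2 held 48.7, 61.4 and 76.1% of TRBV19 reads in epidermis, against 99.9 and 99.7% in dermal A and B. All of the 3 largest dermal TRBV19 clonotypes named above joined TRBJ2 segments. TRBV29 had TRBJ2 shares of 73.3, 80 and 66.7% in epidermis, against 75 and 50% in dermis, which overlapped (exact permutation p = 0.6). Against the other clonotypes of the same library, the TRBJ2 share differed by -9.70 ± 14.4 percentage points for TRBV19 (exact permutation p = 0.0898, adjusted 0.225) and by -1.67 ± 15.9 for TRBV29 (exact permutation p = 0.602). The TRBV19 value was -1.06 weighted by reads and -1.75 with at least 10 reads.

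The lymph node library held enough members to compare single J segments. TRBJ2 made up 63.9% of TRBV19 (Wilson 95% interval 61.0 to 66.6%) and 63.3% of TRBV29 clonotypes (60.7 to 65.8%), against 70.4% of all others (69.9 to 71.0%). The intervals of both segments lay below that of the others. TRBV19 had more TRBJ1-3 (7.74%, 6.32 to 9.44%, against 4.91%, 4.64 to 5.19%) and less TRBJ2-5 (9.94%, 8.33 to 11.8%, against 14.2%, 13.8 to 14.7%). TRBV29 had more TRBJ1-2 (8.24%, 6.88 to 9.84%, against 5.49%, 5.21 to 5.78%) and less TRBJ2-4 (6.74%, 5.52 to 8.22%, against 9.67%, 9.30 to 10.1%). It also had less TRBJ2-7, the most used J segment (15.8%, 13.9 to 17.9%, against 18.6%, 18.1 to 19.1%). In the skin libraries together TRBJ2-7 was 24.7% of TRBV29 (23 of 93 clonotypes, 17.1 to 34.4%), against 20.4% of the others (18.9 to 22.05%), and these intervals overlapped. TRBV19 had less TRBJ2-7 in skin (7.5%, 4.34 to 12.7%) and more TRBJ1-2 (10%, 6.25 to 15.6%, against 4.85%, 4.08 to 5.76%). TRBV29 had more TRBJ1-5 there (9.68%, 5.18 to 17.4%, against 2.64%, 2.09 to 3.34%). Intervals of the other single J segments overlapped in skin. These skin clonotypes are pooled over 8 libraries and include near copies, so the intervals do not cover variation between libraries. In lymph node, TRBJ1-4 was higher in both segments than in the others (5.60%, 5.32 to 5.90%). It was 7.30% (5.93 to 8.96%) for TRBV19 and 8.61% (7.23 to 10.2%) for TRBV29. The lymph node values have counting intervals within 1 library, with no replicate.

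**Figure D5:**
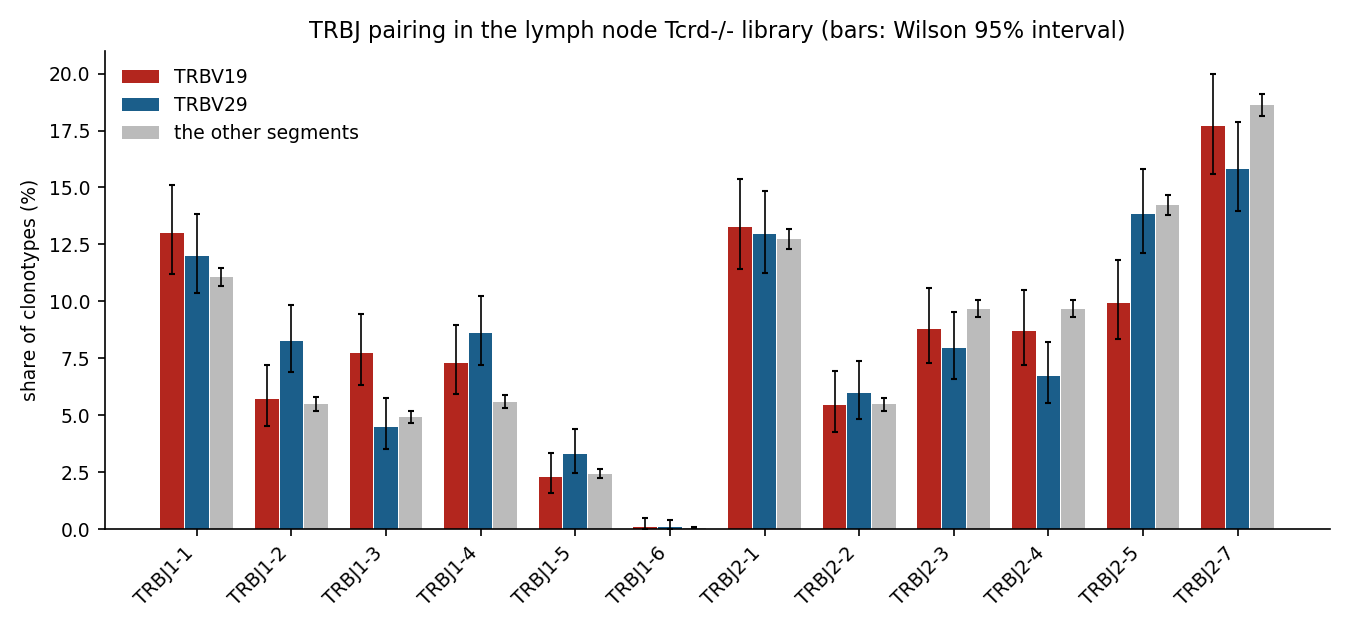
Share of TRBV19, TRBV29 and all other clonotypes that join each TRBJ segment in the lymph node Tcrd-/- library, in percent, with Wilson 95% intervals. TRBV19 is higher at TRBJ1-3 (7.74 against 4.91%) and lower at TRBJ2-5 (9.94 against 14.2%), and TRBV29 is higher at TRBJ1-2 (8.24 against 5.49%).

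Members shared between libraries were mostly shared only within a library set. Of 1248 TRBV19 amino acid clonotypes (same V, J and amino acid CDR3), 14 were found in more than 1 library, 10 of them within 1 set. For TRBV29 it was 14 of 1335, 13 within 1 set. These totals are mostly lymph node clonotypes, 1087 of TRBV19 and 1243 of TRBV29, while skin held 160 and 93 nucleotide clonotypes. Sharing was not compared with that of the other V segments. All skin-only shared clonotypes, 7 of TRBV19 and 9 of TRBV29, lay within 1 set. The leading clonotypes of the 9 libraries were all distinct for both segments.

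Several shared members were large in 1 library and had a few reads in another of its set, and others had few reads in both. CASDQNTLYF (TRBV29) was the only member found in 3 libraries, with 1283 reads in epidermal B and 1 read in each CD103 sort. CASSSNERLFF had 298 reads in epidermal A and 5 in dermal A, and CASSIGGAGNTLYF 234 and 3. In epidermal C, 4 of the 8 TRBV19 clonotypes were single reads of clonotypes that had 81, 167 and 269 reads in WT dermis and 18 in dermal B, all of its set. These single reads count in the TRBV19 clonotype share, length, insertion and TRBJ2 values of epidermal C above. Removing trace clonotypes does not drop them. The source of these low counts was not tested.

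By a fixed measure of likeness, the Pearson correlation of clonotype shares over 9 libraries, the V segments most like TRBV19 were TRBV8 (r = 0.514), TRBV29 (0.400) and TRBV13-2 (0.337). Those most like TRBV29 were TRBV13-1 (0.596), TRBV12-1 (0.406) and TRBV19 (0.400), of 21 segments compared. TRBV8 is annotated as a pseudogene. These values are descriptions, since shares of 1 library sum to a whole and the libraries differ in clonotype number.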

How the data were processed

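Per the labels' protocols, receptor transcripts of sorted cells were amplified by 5′ RACE and PCR and sequenced on an Illumina MiSeq, and no molecular identifiers are named. Per the file headers, the deposited tables give a read count per clonotype, the fraction of the library's reads, the CDR3, its V, D and J segments and the positions where each ends or starts. The clonotype caller, segment reference and build are not given in the sources used here. Inserted bases were CDR3 bases that the deposited positions assign to no segment. In lymph node the deposited V end equalled the exact germline match in 74.6% of clonotypes, so junctions were also recounted against GENCODE M21 (GRCm38). The TRG library was not used here.

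Epidermal (n = 3) and bulk dermal (n = 2) Tcrd-/- libraries were compared by edgeR 4.0.16 (R 4.3.3), with the quasi-likelihood test on counts per V segment, library totals, a common dispersion and no TMM factor, for segments with at least 10 counts, at an adjusted p of 0.05, after a check on simulated data. The 12 shares and CDR3 means were compared by two-sided exact permutation. Each segment was compared with the other clonotypes of its library by a two-sided exact sign-flip permutation over 9 libraries, for 10 values, where the smallest possible p is 0.00391. A share or mean needed at least 3 clonotypes.

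The text names both members, the 4 other listed segments, the 3 segments most alike in clonotype share, up to 2 largest complete clonotypes per segment and library, and clonotypes in at least 3 libraries. Other named clonotypes and the fifth residue were chosen after their values were seen. The members and lists were chosen with earlier results of these data known. Alternatives were at least 2 reads, complete CDR3s, amino acid clonotypes, read weighting, removal of trace clonotypes (under 1% of the share of the same clonotype in another library of the set), CD103 sorts added to the dermal group, no filter, TMM, DESeq2 1.42.0, blocks, and leaving out each library. Chosen after seeing the data were at least 10 reads, no near copies, matching ends and recounted junctions.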

Additional observations from a re-analysis of the deposited data

How the results depend on the processing

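Over 28 results and 258 alternatives other than leaving out a library, 231 kept direction and side of the threshold and 26, in 13 results, reversed. The count of segments passing by reads was 4 with DESeq2 against 0. All reversals were of values that failed their tests, most of them of TRBV29, and their cause was not tested.

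For TRBV19, the epidermal minus dermal clonotype share (0.244 points) was -1.08 with at least 2 reads. Its clonotype log2 fold change (0.06) was -0.12 with at least 2 reads, -0.14 with the library set as a block and -0.24 with the replicate block. For TRBV29, the replicate block turned the read log2 fold change (0.57) to -0.51. Whether the replicate letters pair libraries could not be settled, with only 2 shared letters: deviations from group means correlated at 0.0859 for A and 0.306 for B over 21 segments, where the B value mirrors dermal A. With the block 0 segments passed, by reads or by clonotypes.

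The TRBV29 clonotype share difference (-0.572 points) was 0.714 with CD103 sorts added, 0.690 with at least 10 reads and 0.172 with matching ends. The corresponding log2 fold change (-0.18) was 0.46 with CD103 sorts added, 0.17 with at least 2 reads, 0.10 with matching ends and 0.18 with the set block. TRBV29 length, epidermal minus dermal (0.490), was -0.561 with at least 2 reads, -0.383 with matching ends and -1.06 by reads. Also by reads, its inserted bases (1.42) became -0.922 and its share without insertion (-25.6) 13.0. The TRBJ2 difference (10.8) was -0.224 with CD103 sorts added.

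Against the rest of the library, TRBV29 inserted bases (0.141) were -0.221 with at least 10 reads, -0.145 with matching ends and -0.276 recounted. Its share without insertion (-2.21) was 1.88 recounted and 3.54 without trace clonotypes, its TRBJ2 share (-1.67) was 9.32 by reads and 0.166 without near copies, and its log2 reads (-0.05) were 0.0732 with at least 10 reads.

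Leaving out 1 library at a time reversed 12 results, with these ranges. For TRBV19, the clonotype share difference ranged from -1.97 to 2.46 and its log2 fold change from -0.37 to 0.43. For TRBV29 between tissues, the clonotype share ranged from -1.47 to 0.323 and its log2 fold change from -0.53 to 0.17, the read share from -1.15 to 3.83 and its log2 fold change from -0.50 to 0.98, length from -0.447 to 1.43 and TRBJ2 from -1.67 to 23.3. Against the rest, inserted bases ranged from -0.112 to 0.448, share without insertion from -6.68 to 2.40, TRBJ2 from -5.97 to 1.80 and log2 reads from -0.14 to 0.16. The TRBV19 length excess over the rest stayed between 0.442 and 0.592.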

Other observations

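A cysteine inside the CDR3 was found in a few TRBV19 clonotypes. In dermal A it was present in 2 of 12 complete clonotypes, which held 32.2% of the segment's reads, nearly all from the clonotype with 1232 reads. In epidermal B it was present in 3 of 39 (7.65% of reads), in CD103+ in 1 of 10 (16.8% of reads) and in lymph node in 7 of 1117 (0.627% of clonotypes). The other 5 libraries had no such TRBV19 clonotype, among 15 complete ones in epidermal A, 8 each in epidermal C and dermal B, 7 in CD103hi and 50 in WT dermis. These shares were not compared with those of the other V segments. Among TRBV29 clonotypes it was found in 1 of 34 in WT dermis and 1 of 1318 in lymph node.

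In lymph node, 62 of 1243 TRBV29 amino acid clonotypes (4.99%) were encoded by more than 1 nucleotide sequence, against 30 of 1087 TRBV19 clonotypes (2.76%). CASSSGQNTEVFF, with TRBV29 and TRBJ1-1, had 5 nucleotide versions, 3 of them without inserted bases, while no TRBV19 clonotype had more than 2. These counts come from 1 library and were not tested. They were not compared with the share over all lymph node clonotypes, so neither segment can be called high or low.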
